A study of Mus musculus with 12 samples.

Results

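The 2'-5' oligoadenylate synthetases (OAS) of CT26 cells, a mouse colon carcinoma cell line, were followed by RNA sequencing through treatment with CX3CL1, with IFN-γ and with both. The genes were taken by their symbols in the deposited expression table, OAS1A, OAS1B, OAS1G, OAS2, OAS3, OASL1 and OASL2, which are 7 of the 23636 symbols listed, and all 7 passed the filter on low values. The study asked how the chemokine CX3CL1 (fractalkine) acts on tumor cells that carry its receptor CX3CR1. CT26 cells were left untreated (No treatment), or received recombinant CX3CL1 at 2 µg/ml, IFN-γ at 100 ng/ml, or both (CX3CL1+IFN-γ), for 8 hours. The study's text puts IFN-γ before CX3CL1, and the interval between them is not given in the sources used here. That text names TNF-α together with IFN-γ, while the labels and the figure legend name IFN-γ only. Whether the IFN-γ groups also received TNF-α cannot be told from these sources. Each of the 4 groups had 3 libraries labelled as biological replicates. All 12 came from the same established line, with no genetic change named in the labels or the study's methods. They speak for that line in culture only. The labels do not say whether the replicates were separate cultures, and p-values then measure only the spread between these libraries.

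OAS proteins are sensors of double-stranded RNA that are made on interferon signals. On binding such RNA, the active enzymes join ATP into short chains with 2'-5' links, called 2-5A, and 2-5A acts as a second messenger that brings on the decay of viral and cellular RNA and halts protein synthesis. The OASL proteins carry ubiquitin-like domains beside the OAS fold, and in mice OASL2 keeps the enzyme activity, while OASL1 lacks it and is known as a brake on translation of the mRNA for IRF7.

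All 7 genes lie on mouse chromosome 5 (GRCm38, which is mm10, with the GENCODE vM21 annotation). Oasl2 (chr5:114896936-114912234) and Oasl1 (chr5:114923240-114937915) are neighbours on the plus strand, 11005 bases apart. The others stand in a cluster of 10 OAS genes that spans 191320 bases, with Oas2 (chr5:120730333-120749853), Oas3 (chr5:120753098-120777661), Oas1g (chr5:120876142-120887613) and Oas1a (chr5:120896256-120907521) on the minus strand and Oas1b (chr5:120812635-120824163) on the plus strand. Oas1b, the gene of the flavivirus resistance locus of mice, carries a premature stop in many laboratory strains and is annotated as a polymorphic pseudogene, and the other members as protein coding. The study uses CT26 as a syngeneic model in BALB/cJ mice. Which form of Oas1b CT26 carries was not looked at, so OAS1B RNA here does not speak for a working enzyme. The coding sequences run from 1101 bases in Oas1a and Oas1g to 3414 bases in Oas3, whose protein holds repeated OAS units.

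Oas1a and Oas1g are near copies. Their coding sequences were identical at 96.7% of aligned bases, against 80.7% for Oas1a and Oas1b, and at most 68.4% for pairs that were not both OAS1 genes. Of the 150-base windows of Oas1a transcripts, 32.4% occurred unchanged in Oas1g transcripts, and 24.1% of the Oas1g windows occurred in Oas1a. Such windows were 0% for the other members. How reads shared by both genes were counted is not given in the sources used here. The split between OAS1A and OAS1G is thus uncertain, and so are their levels against the other members.

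The stretch just before the transcription start is shown for the 5 members found in the RefSeq promoter table (GRCm38.p6), since the members moved together and an interferon-stimulated response element (ISRE) is a known motif of such promoters. Each line gives the 120 bases before the start, 5' to 3' on the gene's own strand. Capitals mark matches to a simple form of the ISRE, GAAA and GAAA with 2 free bases between them. The positions were chr5:120907526-120907645 minus strand for OAS1A, chr5:120887614-120887733 minus strand for OAS1G, chr5:120777660-120777779 minus strand for OAS3, chr5:114923120-114923239 plus strand for OASL1 and chr5:114896814-114896933 plus strand for OASL2.
OAS1A: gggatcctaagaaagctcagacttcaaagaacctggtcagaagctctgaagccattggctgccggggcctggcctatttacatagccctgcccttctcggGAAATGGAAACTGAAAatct
OAS1G: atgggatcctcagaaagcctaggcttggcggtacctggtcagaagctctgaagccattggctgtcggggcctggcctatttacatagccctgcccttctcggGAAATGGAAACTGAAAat
OAS3: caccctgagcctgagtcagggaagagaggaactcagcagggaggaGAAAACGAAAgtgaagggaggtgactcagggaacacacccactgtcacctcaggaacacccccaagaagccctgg
OASL1: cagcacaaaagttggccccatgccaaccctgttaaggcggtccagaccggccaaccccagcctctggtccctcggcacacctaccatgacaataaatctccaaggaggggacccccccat
OASL2: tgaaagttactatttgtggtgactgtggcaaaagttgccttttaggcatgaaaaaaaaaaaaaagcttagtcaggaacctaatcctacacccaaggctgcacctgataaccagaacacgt

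In the whole promoter window of the table, which runs from 250 bases before to 50 bases after the start, both strands were searched. OAS1A held 2 overlapping ISRE matches that began 20 and 14 bases before the start. OAS1G held the same pair at 18 and 12 bases before the start, and OAS3 held 1 match at 75 bases before it. The windows of OASL1 and OASL2 held none, which says only that these letters are not in these windows. Of 32851 promoters of the same length, 3.44% held at least 1 match. The palindrome TTCNNNGAA, a simple form of the gamma-activated site of IFN-γ signaling, occurred once, in OAS1A, and in 8.30% of all promoters. An NF-kB motif, GGGA and TTTCC with 1 free base between them, occurred in none of the 5 and in 0.411% of all promoters. The promoters of OAS1A and OAS1G were identical at 88.8% of 294 aligned bases.

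Genes known to answer the treatments were looked up, chosen with earlier results of these data known. The study reports from its sequencing that CX3CL1 raised CXCL1 mRNA, so CXCL1 is not an independent check of the labels. IRF1, a direct target of IFN-γ signaling, averaged 19.6 TPM without treatment and 107 TPM with IFN-γ, and SOCS1, a feedback inhibitor of the same pathway, 11.0 and 23.1 TPM, whereas CIITA stayed under 0.05 TPM in all libraries. CXCL1, a neutrophil chemokine driven by NF-kB, averaged 4.96 TPM without treatment, 440 TPM with CX3CL1 and 55.0 TPM with IFN-γ, and was lower with IFN-γ than with CX3CL1 (log2 difference -2.95 ± 0.38, adjusted p = 0.00111). NFKBIA, the NF-kB inhibitor, averaged 16.8 TPM without treatment, 85.3 TPM with CX3CL1 and 72.3 TPM with IFN-γ, and these treated groups overlapped, so it does not tell their labels apart. Of the epithelial markers, EPCAM was listed at 0 in all 12 libraries and KRT8 and CDH1 stayed under 1 TPM, while KRT18 was detected and vimentin (VIM) was high, so the epithelial identity of the line was not visible in most of the markers looked up. The leukocyte marker PTPRC stayed under 0.05 TPM, and the summed TPM of 7 leukocyte markers, nearly all of it CD68, ran from 8.59 to 16.3 without treatment, 8.01 to 20.1 with CX3CL1, 9.23 to 19.8 with IFN-γ and 10.1 to 27.0 with both. These ranges overlapped, and the part of other cells in the results below was not tested. The pair of endothelial markers summed to at most 0.0468 TPM in any library. TPM carry no read depth, so the depth behind each value is unknown. CX3CL1 replicate 2 was the least like its group, at a median absolute log2 distance of 0.266 from replicate 1 and 0.262 from replicate 3, which were 0.141 apart.

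The OAS1 genes encode the small, single-unit synthetases. OAS1A measured 84.0, 43.4 and 55.8 TPM in the untreated replicates 1, 2 and 3, and 152, 119 and 196 TPM with CX3CL1. With IFN-γ it measured 373, 306 and 363 TPM, and with CX3CL1+IFN-γ 306, 331 and 382 TPM. Every CX3CL1 library was above every untreated one, every IFN-γ library was above every CX3CL1 one, and the groups with IFN-γ alone and with both overlapped.

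OAS1G, the near copy of OAS1A, measured 37.2, 17.4 and 24.8 TPM without treatment and 61.4, 48.0 and 84.6 TPM with CX3CL1. It measured 196, 159 and 199 TPM with IFN-γ and 171, 163 and 203 TPM with both. The groups took the same order, again without overlap except between IFN-γ and CX3CL1+IFN-γ. The ratio of OAS1A to OAS1G TPM was between 2.25 and 2.49 in the 6 libraries without IFN-γ and between 1.79 and 2.03 in the 6 with it. The ranges did not overlap, so OAS1G gained on OAS1A wherever IFN-γ was present, within the limit that reads of these genes may be shared.

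OAS1B was the lowest member in every group by mean. It measured 6.85, 6.35 and 9.23 TPM without treatment, 19.1, 17.4 and 37.9 TPM with CX3CL1, 38.3, 52.1 and 62.9 TPM with IFN-γ, and 38.0, 53.3 and 70.4 TPM with both. Replicate 3 was the highest in all 4 groups, and the highest CX3CL1 library came within 1 TPM of the lowest IFN-γ library.

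OAS2 and OAS3 encode the larger synthetases, built of repeated OAS units, and OAS3 prefers long double-stranded RNA and is known as the main source of 2-5A in many cells. OAS2 measured 14.8, 8.60 and 14.8 TPM without treatment, 30.1, 26.2 and 43.0 TPM with CX3CL1, 51.3, 69.8 and 74.8 TPM with IFN-γ, and 57.5, 68.6 and 81.8 TPM with both. OAS3 measured 32.9, 22.1 and 25.8 TPM without treatment, 77.3, 88.7 and 87.8 TPM with CX3CL1, 105, 120 and 134 TPM with IFN-γ, and 112, 144 and 141 TPM with both. Each rose in steps from no treatment to CX3CL1 to IFN-γ with no overlap, and the OAS3 libraries treated with CX3CL1 lay close together and nearer to the IFN-γ level than those of any other member.

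The OAS-like genes were, with OAS1A, the most abundant members. OASL1 measured 50.7, 46.6 and 58.7 TPM without treatment, 147, 108 and 195 TPM with CX3CL1, 220, 261 and 344 TPM with IFN-γ, and 273, 302 and 406 TPM with both. OASL2 measured 51.8, 30.1 and 53.3 TPM without treatment, 173, 163 and 227 TPM with CX3CL1, 262, 331 and 399 TPM with IFN-γ, and 349, 357 and 434 TPM with both. Both genes rose from no treatment to CX3CL1 to IFN-γ without overlap, and the ranges with IFN-γ alone and with both treatments overlapped.

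**Figure D1:**
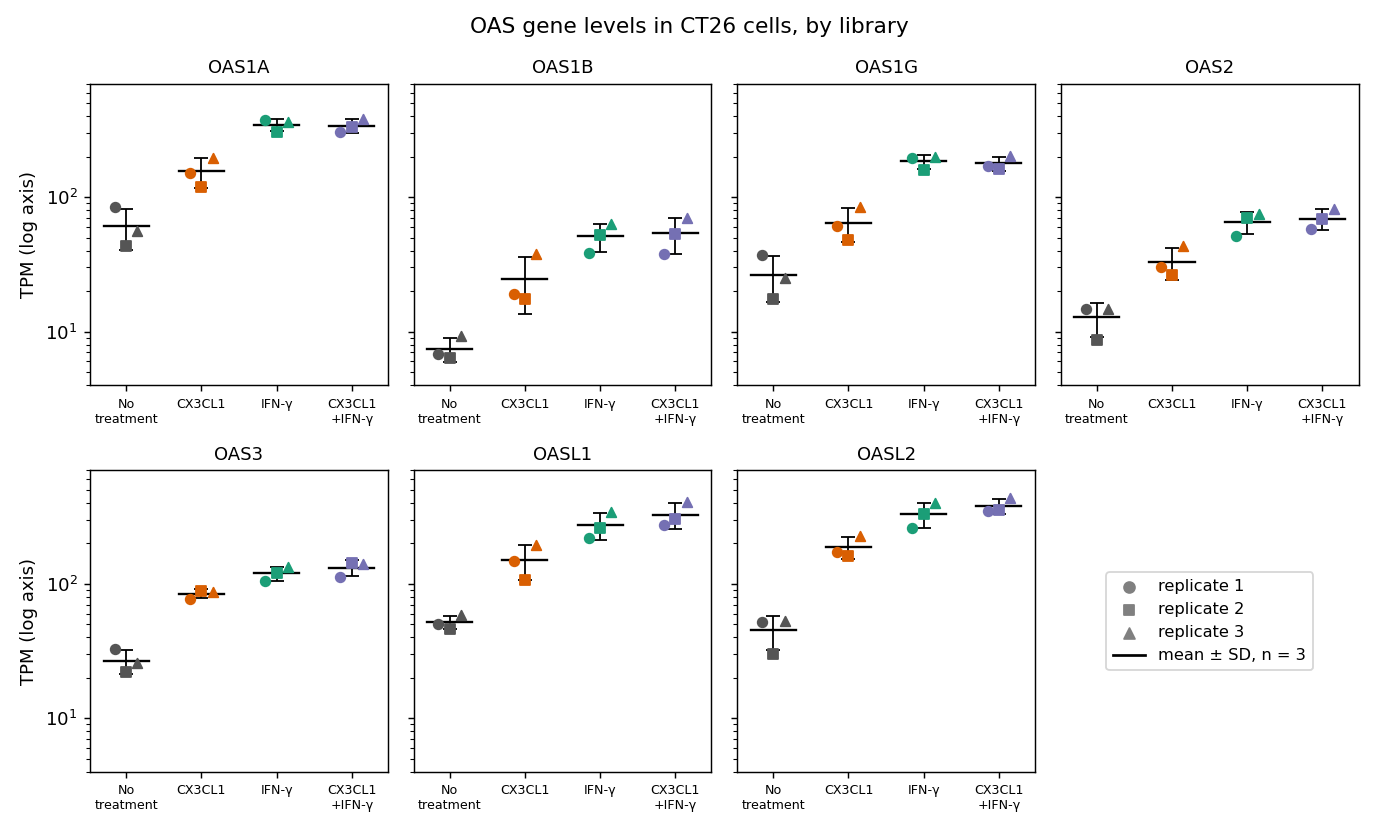
TPM of the 7 OAS genes in each library, on a log axis, with 1 panel a gene and the 4 groups along the x axis. Points are libraries, with a marker for each replicate number, and the black lines give the mean ± SD of 3 libraries. In every panel the untreated libraries are lowest, the CX3CL1 libraries lie between, and the IFN-γ and CX3CL1+IFN-γ libraries are highest and overlap each other.

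IFN-γ gave the larger rise of the single treatments. Against no treatment, all 7 members rose, where 5.91% of the 11878 genes tested were called higher (limma on log2(TPM + 1), Benjamini-Hochberg adjusted p under 0.05). For all 7, every IFN-γ library lay above every untreated one, as for 20.6% of all genes tested. In bulk RNA, more RNA per cell and more cells that express a gene cannot be told apart. The log2 fold changes, on the log2(TPM + 1) scale, ran from 2.13 ± 0.15 (SE) for OAS3 to 2.87 ± 0.22 for OASL2, with a median of 2.54 where the median of all genes tested was 0.03. OASL2 was 7.31-fold higher (95% interval 2.40 to 3.34 in log2, adjusted p = 5.5e-06), OAS1G 7.03-fold and OAS3 4.36-fold higher on that scale. The estimate of OAS1G passed that of OASL2 without IFN-γ replicate 2 (2.92 against 2.86), without IFN-γ replicate 3 (2.76 against 2.72) and without untreated replicate 1 (3.08 against 2.99). The 95% intervals of all 7 overlapped each other, and no test of one member against another was made. The adjusted p of the members ran from 3.35e-06 for OAS3 to 7.19e-05 for OAS1B.

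CX3CL1 alone also raised every member. All 7 were called higher against no treatment, where 1.78% of the genes tested were, and all 7 lay wholly above the untreated libraries, as did 5.5% of all genes. The log2 fold changes ran from 1.28 ± 0.24 for OAS1G to 2.06 ± 0.22 for OASL2, with a median of 1.48 against -0.02 over all genes tested. OASL2 had the largest estimate, with all libraries and with any single one of these groups left out, and was 4.17-fold higher (95% interval 1.59 to 2.53 in log2, adjusted p = 0.000245). OAS3 followed with a log2 fold change of 1.63 ± 0.15 (adjusted p = 0.000128), then OAS1B with 1.54 ± 0.29 (adjusted p = 0.0123), OASL1 with 1.48 ± 0.22, OAS1A with 1.36 ± 0.22 and OAS2 with 1.32 ± 0.23. The order of the members below OASL2 changed when single libraries were left out. The comparisons with IFN-γ and with CX3CL1 share the untreated libraries. Without CX3CL1 replicate 2, all 7 were still called. Without untreated replicate 2, the lowest untreated library for all 7 genes, the count was 5. Among all genes tested, 152 to 268 were called in either direction with 1 library left out, against 232 with all libraries.

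**Figure D2:**
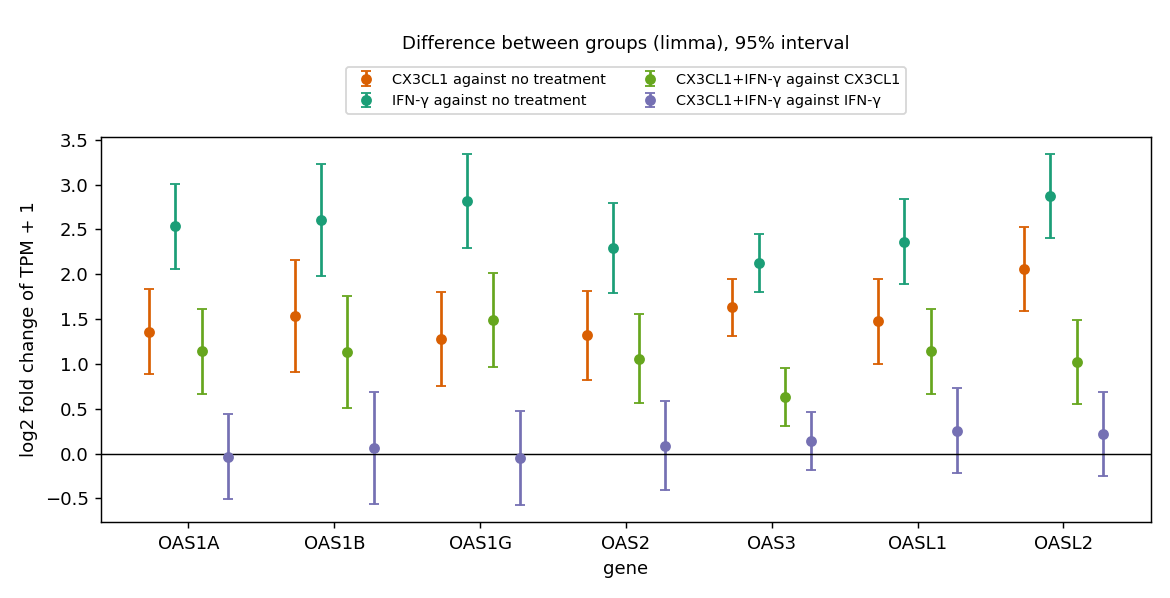
Log2 fold changes of TPM + 1 (y axis) of the 7 OAS genes (x axis) in 4 comparisons, as points with 95% intervals from limma. The values for IFN-γ against no treatment lie between 2.13 and 2.87 and those for CX3CL1 against no treatment between 1.28 and 2.06, while every interval for CX3CL1+IFN-γ against IFN-γ crosses 0.

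Set directly against each other, the level was higher with IFN-γ than with CX3CL1 for all 7 members, with no overlap between the groups, as for 18.3% of all genes tested. This comparison was added after the data were seen. In it, 4 members were called higher, where 3.52% of the genes tested were: OAS1G with a log2 difference of 1.53 ± 0.24, OAS1A with 1.18 ± 0.22, OAS2 with 0.97 ± 0.23 and OASL1 with 0.89 ± 0.22. The differences of OAS1B (1.07 ± 0.29, adjusted p = 0.056), OASL2 (0.81 ± 0.22, adjusted p = 0.0541) and OAS3 (0.49 ± 0.15, adjusted p = 0.0782) did not pass the threshold. With the replicate number as a block, 6 were called, all but OAS3 (adjusted p = 0.0532), where 10.3% of the genes tested were called higher. The count was 2 without CX3CL1 replicate 1, without CX3CL1 replicate 2 or without IFN-γ replicate 2, 1 without IFN-γ replicate 3 and 6 without CX3CL1 replicate 3. Over all genes tested, 185 to 457 were called in either direction with 1 library left out, against 544 with all libraries. The rise in mean TPM with CX3CL1 came to 24.1% of the rise with IFN-γ for OAS1G, 33.1% for OAS1A, 38.7% for OAS2, 39.7% for OAS1B, 43.9% for OASL1, 49.9% for OASL2 and 62.0% for OAS3.

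Adding IFN-γ to CX3CL1 raised the members further. All 7 were called higher in CX3CL1+IFN-γ than in CX3CL1, where 3.76% of the genes tested were, and none of the 7 overlapped, as for 14% of all genes. The log2 fold changes ran from 0.63 ± 0.15 for OAS3 (adjusted p = 0.0281) to 1.49 ± 0.24 for OAS1G (adjusted p = 0.00339), with a median of 1.13 against 0.04 over all genes. OAS1B was closest to the threshold (1.13 ± 0.29, adjusted p = 0.0438). This count leaned on single libraries and on the filter. It was 1 without CX3CL1+IFN-γ replicate 3, 3 without CX3CL1 replicate 1, 4 without CX3CL1 replicate 2 and 3 with no filter on low values, while every fold change stayed positive. Among all genes tested, 270 to 668 were called in either direction with 1 library left out, against 558 with all libraries.

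Adding CX3CL1 to IFN-γ changed no member past the threshold. Of the 7, 0 were called by limma, where 0.345% of the genes tested were called higher and 0.0168% lower, and 0 had an unadjusted p under 0.05. All 7 groups overlapped, where 8.54% of all genes lay wholly above and 7.74% wholly below. The log2 differences were -0.03 for OAS1A (95% interval -0.51 to 0.44), -0.05 for OAS1G (-0.57 to 0.48), 0.06 for OAS1B (-0.57 to 0.69), 0.09 for OAS2 (-0.41 to 0.59), 0.14 for OAS3 (-0.18 to 0.46), 0.21 for OASL2 (-0.25 to 0.68) and 0.25 for OASL1 (-0.22 to 0.73). OAS3, OASL1 and OASL2 were higher with both treatments than with IFN-γ alone at each of the 3 replicate numbers, and the other members at only some of them. The share of all genes tested that were higher at each number was not counted, and what a replicate number shares is not stated in the labels. With the replicate number as a block, the adjusted p was 0.774 for OAS3, 0.652 for OASL1 and 0.734 for OASL2. With these intervals, a further rise as large as the estimate for CX3CL1 alone lay outside the interval of each member, and smaller changes in either direction lay inside it. That CX3CL1 had no effect in the presence of IFN-γ is not shown by these values.

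The interaction is the log2 effect of CX3CL1 with IFN-γ minus its effect without IFN-γ. It was negative for all 7 members, from -1.22 ± 0.31 for OASL1 to -1.85 ± 0.30 for OASL2, with a median of -1.39 against 0.01 over all genes tested. In limma, all 7 had an unadjusted p under 0.05. The shares of all genes tested with such a p or with a negative interaction were not counted, so these counts are not read as results. After adjustment 0 of the 7 passed, and 0% of the genes tested did. The lowest adjusted p was 0.0792, shared by OAS3 and OASL2. With the replicate number as a block the estimates were the same and 4 members passed, OASL2 (adjusted p = 0.0112), OAS3 (0.0166), OAS1B (0.0189) and OASL1 (0.0189), where 0.413% of the genes tested were called lower. OAS1A (0.0509), OAS1G (0.0621) and OAS2 (0.0954) did not pass with the block. Leaving out untreated replicate 1 brought OAS1A and OAS3 past the threshold without the block. Over all genes tested, leaving out 1 library gave between 0 and 11 calls for the interaction.

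**Figure D3:**
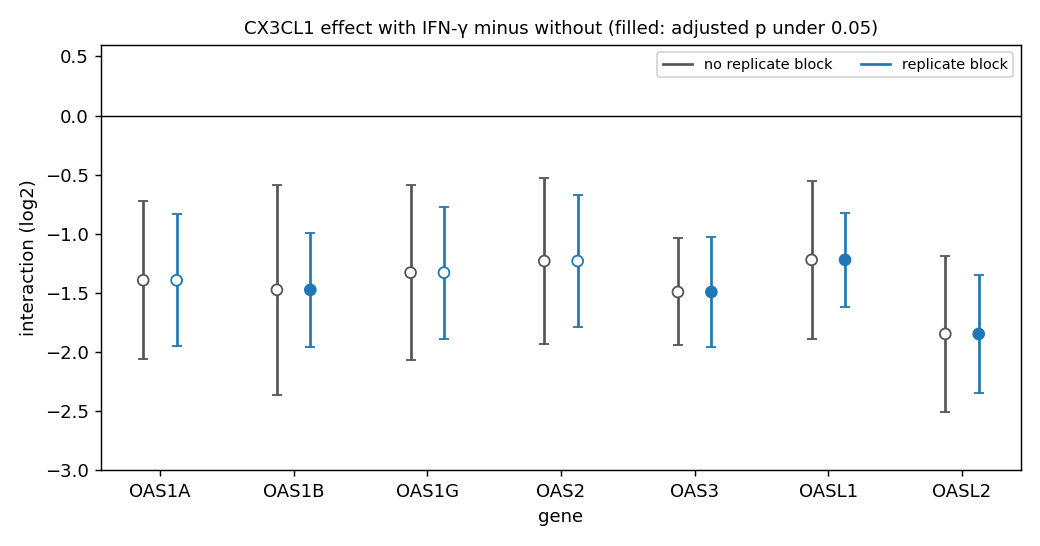
Interaction of CX3CL1 and IFN-γ on the log2 scale (y axis) for the 7 OAS genes (x axis), with 95% intervals, from limma without (grey) and with (blue) the replicate number as a block. Filled points passed an adjusted p under 0.05. All estimates lie between -1.22 and -1.85, and 4 are filled, all of them with the block.

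On the TPM scale, the mean levels with both treatments lay below those expected if the separate rises had added. For OASL2 the mean with both was 380 ± 46.9 TPM (SD, n = 3), against 473 TPM if the mean rises with CX3CL1 and with IFN-γ had added. For OAS1A the same pair of values was 340 and 442 TPM, and for OAS3 132 and 178 TPM. For OASL1 and OAS1B the added values, 373 and 68.4 TPM, lay within the libraries with both, whose highest were 406 and 70.4 TPM. Summed over the 7 genes, the level was 1481 TPM with both, against 1842 TPM for added rises. These sums are a description and were not tested.

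The summed level of the 7 genes was 232 ± 52.7 TPM without treatment (SD, n = 3), 700 ± 154 TPM with CX3CL1, 1374 ± 178 TPM with IFN-γ and 1481 ± 213 TPM with both. As a share of all TPM, this was 0.0232%, 0.0700%, 0.137% and 0.148%. The sum with CX3CL1 was 3.02-fold and with IFN-γ 5.93-fold the untreated one. The lowest CX3CL1 library (570 TPM) was above the highest untreated library (278 TPM), and the lowest IFN-γ library (1246 TPM) above the highest CX3CL1 library (871 TPM).

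TPM are scaled by gene length, so levels can be set side by side between genes, within limits. The lengths used are not given in the sources used here. Reads shared by OAS1A and OAS1G may have been left out or split, which would move their places in the order, their shares and the sum. Without treatment the order of mean TPM was OAS1A (61.1), OASL1 (52.0), OASL2 (45.1), OAS3 (26.9), OAS1G (26.5), OAS2 (12.7) and OAS1B (7.48). Of these neighbours, OAS1G and OAS2 did not overlap, and each other pair of neighbours did, with OAS1A above OASL1 in 1 of 3 libraries. With CX3CL1, OASL2 moved to the top (187), above OAS1A (156) and OASL1 (150) in each of the 3 libraries, although the ranges overlapped. With IFN-γ the order was OAS1A (347), OASL2 (331), OASL1 (275), OAS1G (185), OAS3 (120), OAS2 (65.3) and OAS1B (51.1), and OAS1G stood above OAS3 without overlap. OAS1A was above OASL2 in only 1 of the 3 IFN-γ libraries, replicate 1, so its first place there rests on that library. CX3CL1+IFN-γ gave OASL2 first (380) and OAS1A second (340), with the lower 5 in the same order as with IFN-γ. Among the genes tested, OAS1A had a higher mean than 76.1% without treatment and 96.2% with IFN-γ, and OAS1B than 27.3% and 70.9%.

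The make-up of the sum shifted with the treatment. OASL2 held 19.3% ± 2.44 of the summed TPM without treatment (SD, n = 3) and 26.9% ± 1.39 with CX3CL1, and the highest untreated share (22.0%) was below the lowest CX3CL1 share (26.0%). OAS1G held 9.15% ± 0.67 with CX3CL1 and 13.5% ± 1.94 with IFN-γ, without overlap between those groups. OAS3 held 11.7% ± 1.02 without treatment and 8.74% ± 0.46 with IFN-γ, also without overlap, and 12.5% ± 2.81 with CX3CL1. The OAS1B share stayed between 2.46% and 4.35% in all 12 libraries, and the OAS2 share between 4.12% and 6.10%. No test was run on the shares.

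**Figure D4:**
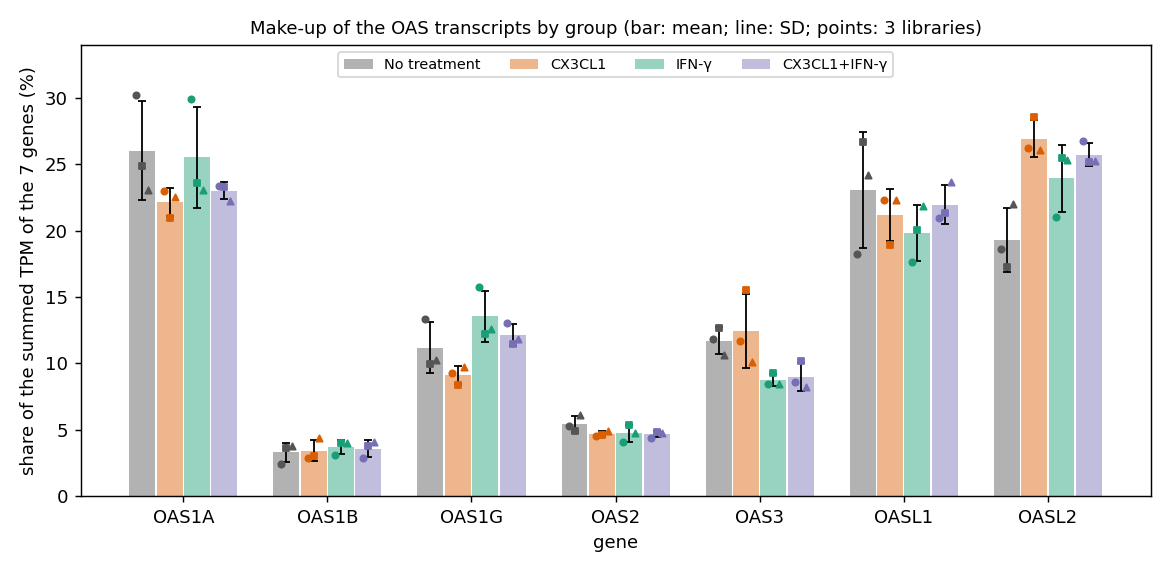
Share of the summed TPM of the 7 OAS genes held by each gene, in percent (y axis), by gene (x axis) and group (colour). Bars are means, lines SD and points the 3 libraries. OASL2 rises from 19.3% without treatment to 26.9% with CX3CL1, and OAS3 is lower with IFN-γ (8.74%) than without treatment (11.7%).

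Over all 12 libraries the members followed each other closely. Pearson's r of log2(TPM + 1) between pairs of members ran from 0.935 for OAS1G and OAS3 to 0.996 for OAS1A and OAS1G, as a description over 12 libraries that share the 4 treatments. Once each group's mean was removed, r ran from 0.391 to 0.987, the latter for OAS1A and OAS1G, which may share reads. OAS2 and OASL2 gave 0.960 and OAS1B and OASL1 0.925 on these deviations. By the same measure over all 12 libraries, the gene outside the set most like each member was UBE2L6 for OAS1A (r = 0.995), ZBP1 for OAS1G (0.995), ADAR for OAS1B (0.989) and OASL1 (0.994), STAT2 for OAS2 (0.991), DDX58 for OAS3 (0.997) and RTP4 for OASL2 (0.995). UBE2L6 is the conjugating enzyme for ISG15, DDX58 encodes RIG-I, and STAT2 is part of the ISGF3 factor of type I interferon signaling. After removal of the group means, the most alike were ZBP1 for OAS1A (0.933) and OAS1G (0.968), HELZ2 for OASL1 (0.986), RTP4 for OAS2 (0.948), WSB1 for OASL2 (0.982), GM6904 for OAS1B (0.958) and CSPRS for OAS3 (0.971). Each is the highest of 11871 genes tested outside the set.

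ABCE1 and PDE12, which are known to limit this pathway, gave 0 calls in limma in the comparisons above, and 0 at an unadjusted p under 0.05. Without the block, at most 5.91% of the genes tested were called higher in any of these comparisons, so 0 calls says little about these genes. ABCE1, a ribosome recycling factor, measured 355, 341 and 349 TPM without treatment, 288, 527 and 303 TPM with CX3CL1, 244, 307 and 279 TPM with IFN-γ, and 273, 357 and 303 TPM with both. Its highest value was that of CX3CL1 replicate 2, the library least like its group, and all 3 IFN-γ libraries lay below the untreated ones (log2 fold change -0.34 ± 0.19, adjusted p = 0.333). PDE12, a phosphodiesterase that degrades 2-5A, ranged from 16.9 to 25.5 TPM over the 12 libraries and differed by -0.06 ± 0.13 with IFN-γ and 0.04 ± 0.13 with CX3CL1.

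The other OAS1 genes of the cluster were low. OAS1C measured 3.09 ± 1.03 TPM without treatment (SD, n = 3), 5.63 ± 1.00 TPM with CX3CL1, 8.52 ± 0.75 TPM with IFN-γ and 10.2 ± 2.24 TPM with both. It was called higher with IFN-γ (log2 fold change 1.25 ± 0.20, adjusted p = 0.0013) and did not pass with CX3CL1 (0.72 ± 0.20, adjusted p = 0.113), though its untreated and CX3CL1 libraries did not overlap. OAS1D was called higher with IFN-γ (0.89 ± 0.13, adjusted p = 0.000531) at a mean of 0.957 TPM, from 0.0575 TPM. OAS1E and OAS1F stayed under 0.3 TPM and did not pass the filter, and OAS1H was listed at 0 in all 12 libraries.

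Other proteins that bind or signal from double-stranded RNA moved in the same direction as the members. Of 8 such genes, 7 were called higher with IFN-γ and the same number with CX3CL1, where 5.91% and 1.78% of the genes tested were. MAVS, the mitochondrial adaptor, was called in neither (0.12 ± 0.13 and -0.12 ± 0.13). IFIH1, which encodes MDA5, averaged 10.5 TPM without treatment, 39.1 TPM with CX3CL1 and 59.5 TPM with IFN-γ. DDX58 averaged 23.6, 78.1 and 103 TPM in those groups. ZBP1, a sensor of Z-form nucleic acids, had the widest gap between treatments, with log2 fold changes of 2.50 ± 0.35 with CX3CL1 and 5.52 ± 0.35 with IFN-γ. EIF2AK2, the kinase PKR, rose by 1.15 ± 0.15 and 1.07 ± 0.15. Of the 8, 5 were called higher when IFN-γ was added to CX3CL1, where 3.76% of the genes tested were. When CX3CL1 was added to IFN-γ, 0 of the 8 were called, where 0.345% of the genes tested were called higher and 0.0168% lower. EIF2AK2 alone had an unadjusted p under 0.05 there. The interaction was negative for all 8, with a median of -1.21, and 0 passed the adjusted threshold, as did 0% of the genes tested.

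Among the factors downstream of interferon, STAT2, IRF9, IRF1 and IRF7 were each called higher with IFN-γ, where 5.91% of the genes tested were. With CX3CL1, where 1.78% of the genes tested were called higher, STAT2 (log2 fold change 1.42 ± 0.22, adjusted p = 0.00288) and IRF9 (0.80 ± 0.11, adjusted p = 0.00176) were called. Both are part of ISGF3. IRF1 (0.53 ± 0.28, adjusted p = 0.778) and IRF7 (1.52 ± 0.41, adjusted p = 0.105) did not pass with CX3CL1. IRF7, whose translation OASL1 is known to restrain, ranged from 21.6 to 112 TPM without treatment and from 652 to 764 TPM with IFN-γ.

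Of the interferons themselves, IFNB1 was near the floor of the table. It measured 0.106, 0.0720 and 0 TPM without treatment, 0.199, 0 and 0.506 TPM with CX3CL1, 0.568, 0.941 and 0.930 TPM with IFN-γ, and 0.416, 0.373 and 0.930 TPM with both. It was called higher with IFN-γ (log2 fold change 0.77 ± 0.17, adjusted p = 0.0116) and did not pass with CX3CL1 (0.20 ± 0.17, adjusted p = 0.9998), where untreated and CX3CL1 libraries overlapped. IFNG was listed at 0 in 11 libraries and at 0.0647 TPM in 1. The receptor genes IFNAR1, IFNAR2, IFNGR1 and IFNGR2 gave 0 calls in limma against no treatment, with IFNGR2 at an unadjusted p under 0.05 in both comparisons and IFNAR2 with IFN-γ. Of all genes tested, 5.91% were called higher with IFN-γ and 1.78% with CX3CL1.

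**Figure D5:**
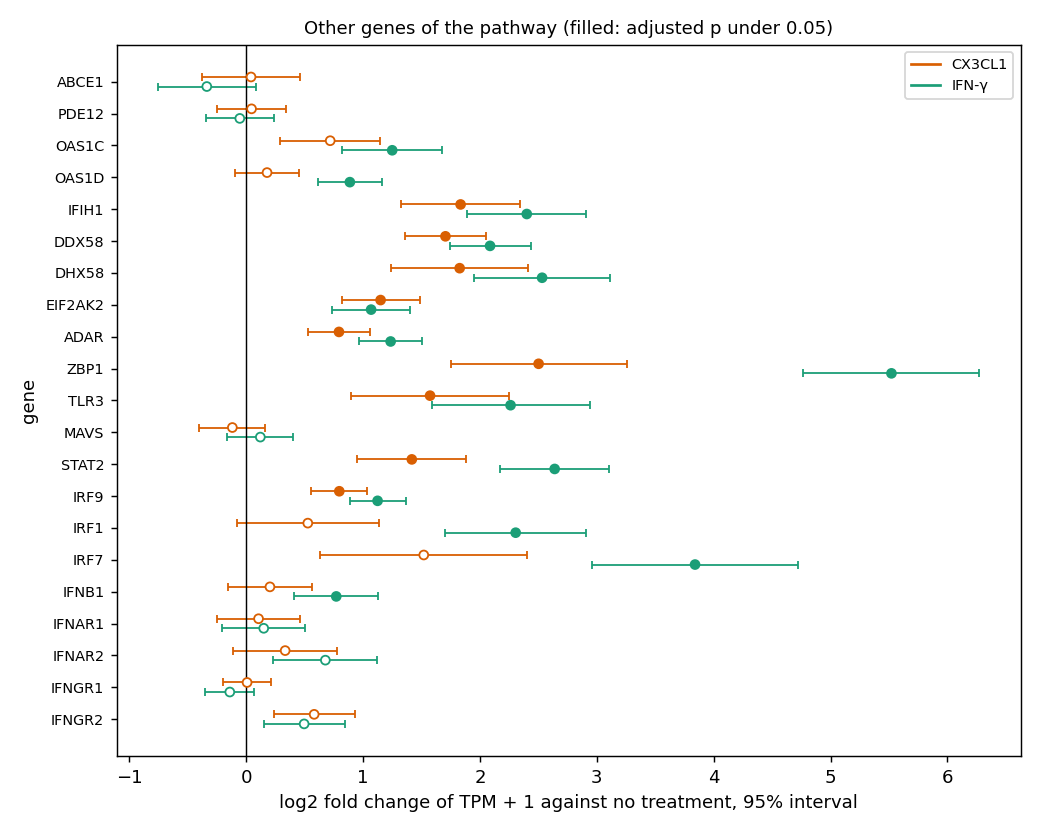
Log2 fold changes of TPM + 1 against no treatment (x axis, with 95% intervals) for ABCE1, PDE12 and other genes of the pathway (y axis), with CX3CL1 in orange and IFN-γ in green. Filled points passed an adjusted p under 0.05. ABCE1 and PDE12 are unfilled and lie within 0.4 of 0, while 7 of the 8 double-stranded RNA proteins, all but MAVS, are filled for both treatments. Of all genes tested, 1.78% were called higher with CX3CL1 and 5.91% with IFN-γ.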

How the data were processed

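CT26 cells of 4 groups with 3 libraries each were sequenced by the authors, with strand-specific mRNA libraries aligned to mm10 and counted per gene with STAR 2.7.3a, and tested with DESeq2 1.22.1 (the study's methods and the submitters' processing notes). The values deposited by the authors are TPM and add up to 1000000 in every library. How counts became TPM and the gene annotation are not given in the sources used here. Groups were taken from the labels, doses and time from the study's methods and legend.

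Here, log2(TPM + 1) was tested for 11878 genes, those averaging 0.2 TPM or more, with limma 3.58.1 in R 4.3.3 (lmFit, and eBayes with an intensity trend), with all 12 libraries and no block. The Benjamini-Hochberg adjustment was made over all genes of a comparison, with a threshold of 0.05. The log2(TPM + 1) scale understates changes of low genes. With 3 libraries a group, a two-sided exact permutation test cannot go below p = 0.1, so calls rest on the spread pooled by limma. Adjusted p-values are limma's throughout. The fit was also tested on data simulated with independent noise in each library. That test cannot show how the fit behaves where libraries with the same replicate number are alike. Positions came from GENCODE vM21, and sequences from it and from RefSeq, read with Biopython 1.88.

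The named genes were all 7 members, listed genes of the pathway (some of which are not reported here), and for each member the genes with the highest correlation. Members and lists were chosen with earlier results of these data known. The fit was repeated with quantile normalization, with median-ratio scaling, with a pseudocount of 0.1, without the filter or with it at 1 TPM, without the intensity trend, on only the libraries compared, with the replicate number as a block, and without each library. The labels number the replicates alike in each group without saying what a number shares. After subtraction of group means, same-numbered libraries correlated across genes for IFN-γ and CX3CL1+IFN-γ (r = 0.630 to 0.649), CX3CL1 and CX3CL1+IFN-γ (0.351 to 0.428), CX3CL1 and IFN-γ (0.226 to 0.584) and no treatment and IFN-γ (0.220 to 0.460). For no treatment and CX3CL1 (0.00472 to 0.387), and no treatment and CX3CL1+IFN-γ (0.0324 to 0.447), not every pair passed 0.1. Untreated replicate 2 was more like a CX3CL1 library of another number (r = 0.253). Untreated replicate 3 was more like a CX3CL1+IFN-γ library of another number (r = 0.120). In all other cases the same number gave the highest r. The source of this likeness was not tested.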

Additional observations from a re-analysis of the deposited data

How the results depend on the processing

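For IFN-γ against no treatment, all 7 OAS genes were called under each of the 14 alternatives, and for CX3CL1+IFN-γ against IFN-γ 0 were called under any of the 14. For CX3CL1 against no treatment, between 5 and 7 were called, with OAS1G lost in 5 and OAS1B in 2 of the 14 (highest adjusted p 0.0682 and 0.0707). For CX3CL1+IFN-γ against CX3CL1 the count was 3 with no filter and between 1 and 7 with 1 library left out. OAS1G was called under all 14 alternatives there, and OAS1B under 6. The interaction gave 1 call with quantile normalization (OAS3), 4 with the replicate number as a block and 0 to 2 with 1 library left out. IFN-γ against CX3CL1 gave 2 calls with no filter, 2 with median-ratio scaling, 2 with only the libraries compared and between 1 and 6 with 1 library left out. No called value changed sign under any alternative that was run, and in CX3CL1+IFN-γ against IFN-γ, where nothing was called, the sign changed in 10 of 98 values. The replicate block changed no call of an OAS gene beside those of the interaction and of IFN-γ against CX3CL1. Over all genes, it moved the number called from 932 to 1929 for IFN-γ against no treatment, from 232 to 455 for CX3CL1 against no treatment, from 558 to 1369 for CX3CL1+IFN-γ against CX3CL1, from 43 to 95 for CX3CL1+IFN-γ against IFN-γ, from 0 to 52 for the interaction and from 544 to 1601 for IFN-γ against CX3CL1. With only the libraries compared the numbers were 344, 20 and 252 for CX3CL1+IFN-γ against CX3CL1, CX3CL1+IFN-γ against IFN-γ and IFN-γ against CX3CL1. No filter gave 28 for CX3CL1+IFN-γ against IFN-γ, and quantile normalization gave 1 for the interaction. With 1 library left out, the numbers ran from 530 to 764, 152 to 268, 270 to 668, 16 to 54, 0 to 11 and 185 to 457 in the order of the block counts. The causes were not tested. Depth is unknown in TPM, so it could not be weighed.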
